A study of Homo sapiens with 6 samples.

Results

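The snoRNA host genes are genes whose introns carry small nucleolar RNAs (snoRNAs). They were chosen by name, as every symbol made of SNHG and a number together with GAS5, ZFAS1, EPB41L4A-AS1, CCDC200, DANCR, TAF1D and NOP56, which gave 35 of the 60719 genes in the expression tables. They were measured in human pluripotent stem cells (hPSCs) of the embryonic lines H1 and H9, cultured on Matrigel in StemFlex for 96 h under simulated microgravity (sµg) on a fast-rotating clinostat (3 libraries, labelled Test) or at normal gravity (1g) in static slides (3 libraries, labelled Control). Poly(A) RNA was sequenced, the sources do not name the line behind each library, and the methods call the controls matched and the experiments repeated without saying whether the 3 libraries of a condition are separate cultures, so the p-values measure only the spread between these libraries, which may be technical.

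A host gene of this kind is transcribed as one long RNA. Its exons are spliced together, and the snoRNA is trimmed out of an excised intron and bound by its own set of proteins. Box C/D snoRNAs guide ribose methylation of ribosomal RNA, box H/ACA snoRNAs guide pseudouridylation, and the related scaRNAs act on spliceosomal RNAs in Cajal bodies. Many host RNAs that are not protein-coding are known for short life in the cytoplasm through nonsense-mediated decay (NMD) and for starting with a run of pyrimidines, the terminal oligopyrimidine (TOP) start also found on ribosomal protein mRNAs. Poly(A) libraries report the spliced host RNA and not the snoRNA: the annotated snoRNA and scaRNA genes together held only 34, 29 and 37 counts in the sµg libraries and 40, 31 and 32 counts in the 1g libraries.

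The name rule was checked against the annotation. GENCODE 44 or RefSeq places a snoRNA or scaRNA inside 34 of the 35 genes, and neither does so for CCDC200. By the names of their snoRNAs, 12 were hosts of box C/D, 12 of box H/ACA, 5 of both kinds and 4 of scaRNAs. SNHG14 is the largest host, with 84 box C/D snoRNAs in GENCODE 44, most of them copies of SNORD116 and SNORD115 in the imprinted region on chromosome 15. The sequences below, from GENCODE 44 on GRCh38, are snoRNAs carried by the hosts that the results turn on, and the capitals mark box C (TGATGA, within the first 20 bases) and box D (CTGA, within the last 15 bases) of box C/D snoRNAs, or the ACA box placed 3 bases from the end of box H/ACA snoRNAs.
SNORA26 in DANCR, chr4:52713249-52713370, plus strand: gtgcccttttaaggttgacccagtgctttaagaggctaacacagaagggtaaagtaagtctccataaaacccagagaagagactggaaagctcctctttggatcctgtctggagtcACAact
SNORD50B in SNHG5, chr6:85677589-85677658, minus strand: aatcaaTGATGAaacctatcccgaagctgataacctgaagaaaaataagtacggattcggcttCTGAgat
SNORD86 in NOP56, chr20:2656097-2656182, plus strand: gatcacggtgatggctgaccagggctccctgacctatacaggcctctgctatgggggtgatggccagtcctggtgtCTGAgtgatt
SNORD48 in SNHG32, chr6:31835263-31835326, plus strand: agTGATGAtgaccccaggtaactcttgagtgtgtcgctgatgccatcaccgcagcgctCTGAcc
SNORD52 in SNHG32, chr6:31837076-31837142, plus strand: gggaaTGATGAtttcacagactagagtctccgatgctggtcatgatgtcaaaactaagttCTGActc
Read on their own strand, 205 of 313 annotated SNORD genes (65.5%) held the box C letters and 273 (87.2%) the box D letters in these windows, and 142 of 214 SNORA genes (66.4%) held the ACA. In SNORD86 only the box D letters matched, which says nothing of whether other letters serve as its box C.

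The libraries held between 19971097 and 20588215 counts in sµg and between 20876937 and 28506848 counts in 1g. The host genes summed to 4859.3, 4915.1 and 5418.4 TPM, RSEM's depth- and length-normalised abundance, in sµg replicates 1, 2 and 3, against 4502.3, 4568.2 and 4597.9 TPM in the 1g replicates. The third sµg library stood apart: 18 of the 30 tested host genes had their highest TPM there, while 16.1% of all tested genes did. It also had the lowest mitochondrial share of counts, 4.11%, against 4.69% and 4.76% in the other sµg libraries and 5.23% to 5.33% in 1g. What part this library's composition plays in the results was not tested, and the values without it are given beside the results it moves most.

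**Figure D1:**
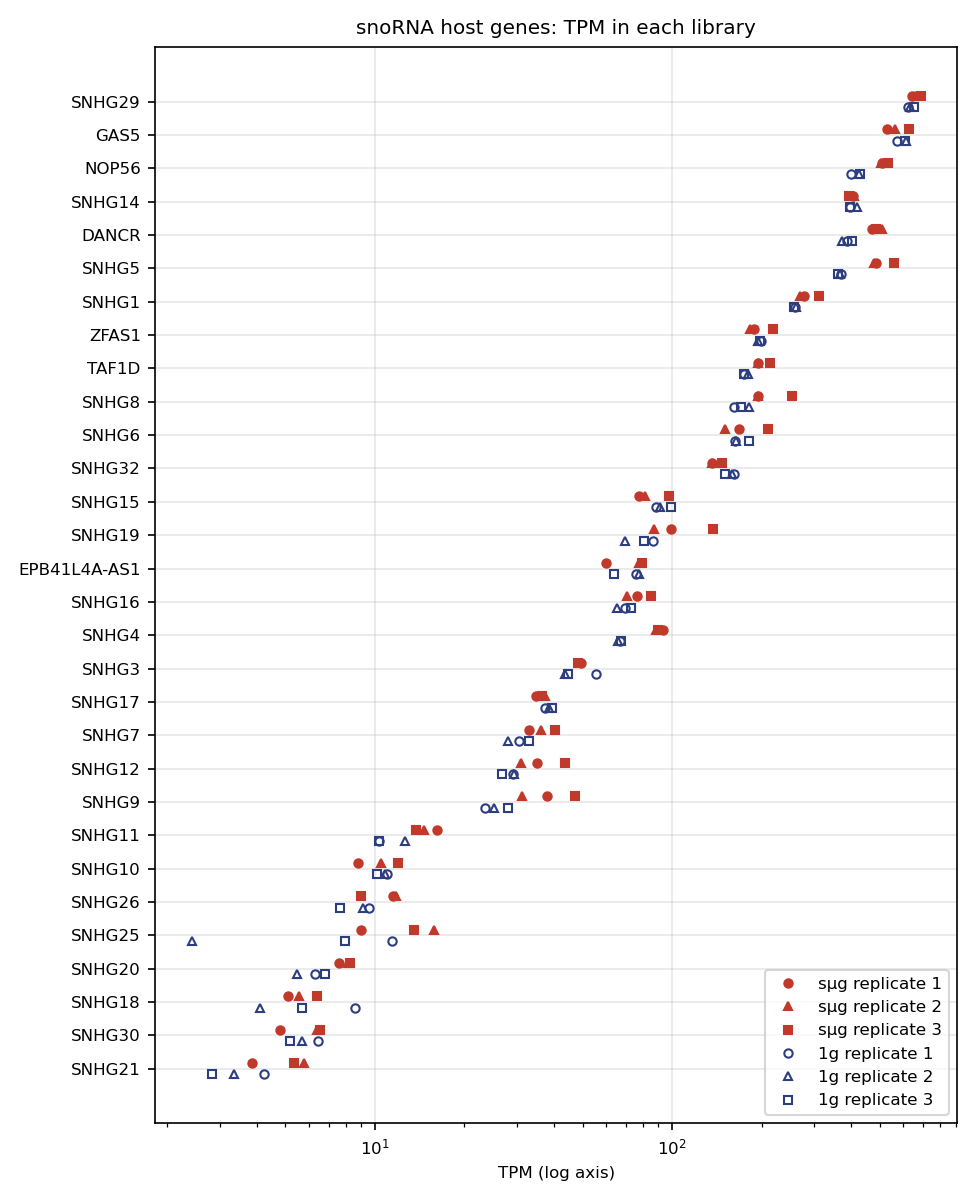
TPM of the 30 tested snoRNA host genes in each library, on a log axis, with filled red symbols for the 3 sµg libraries drawn above open blue symbols for the 3 1g libraries, and genes ordered by their 1g mean. SNHG4, DANCR, SNHG5 and NOP56 have all 3 sµg values above all 3 1g values, and the square of sµg replicate 3 lies far to the right for SNHG19 (137 TPM) and SNHG8 (254 TPM).

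Of the 35 host genes, 30 had enough counts to be tested by edgeR's quasi-likelihood test on rounded expected counts, with p-values adjusted by Benjamini-Hochberg over all 16763 genes tested. Under sµg 9 were higher and 2 lower, 11 in all. This is 36.7% of the tested host genes, beside 33.7% of all tested genes, so being called was about as common as among genes in general. Calls of a rise made up 30% of the host genes and 15.5% of all genes, and calls of a fall 6.67% and 18.2%. The median log2 fold change (sµg over 1g) of the host genes was 0.13, and that of all genes 0.01. Without sµg replicate 3 these medians were 0.06 and 0.00. Counts scaled to library size (CPM) did not overlap between conditions for 13 host genes, 11 higher and 2 lower, where 45.5% of all genes had no overlap. The rises were small, with log2 fold changes from 0.22 to 0.60. The 5 host genes not tested were CCDC200, SNHG22, SNHG27, SNHG28 and SNHG31, of which SNHG27 had no count in any library and the others had at most 20 counts over the sµg libraries and 17 over the 1g libraries.

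**Figure D2:**
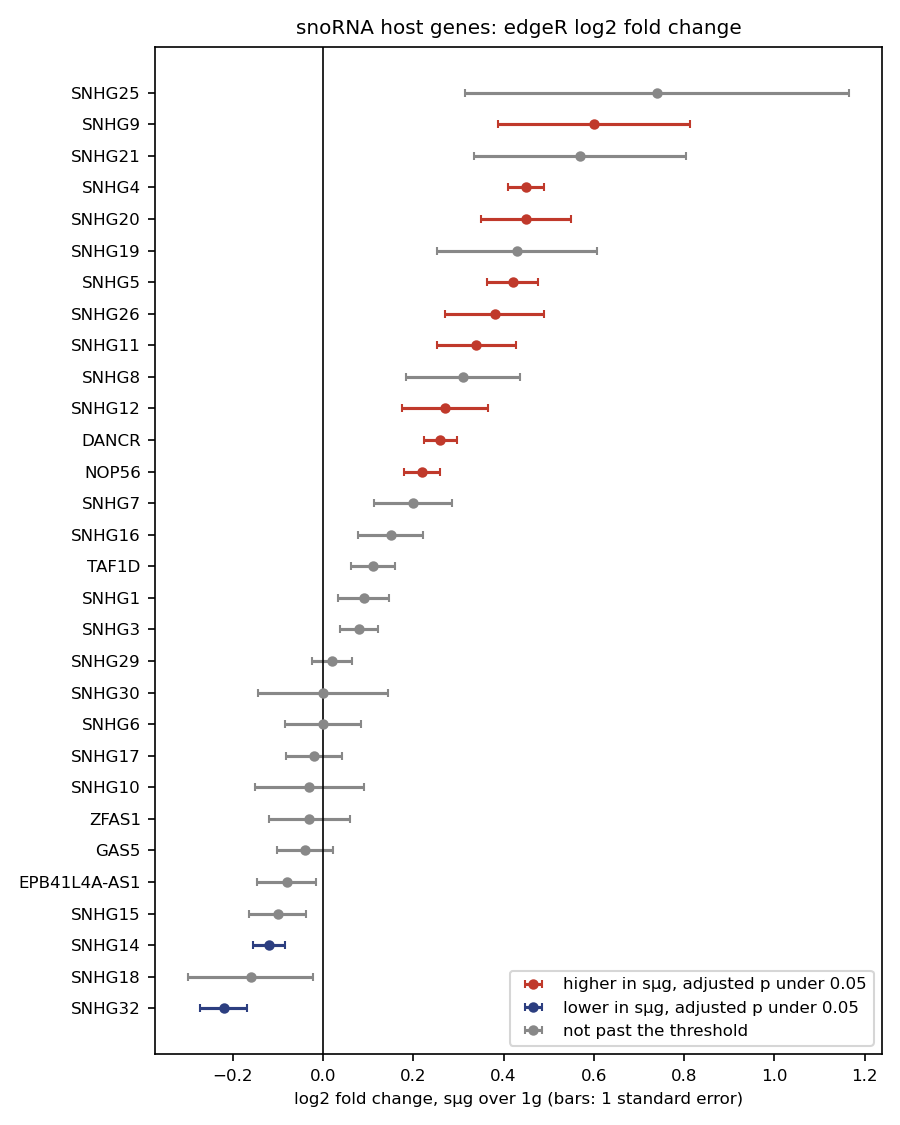
edgeR log2 fold change (sµg over 1g) of the 30 tested host genes with bars of 1 standard error. The 9 red genes passed the threshold as higher in sµg, the 2 blue ones (SNHG32 and SNHG14) as lower, and the widest bars belong to low genes such as SNHG25 (log2 fold change 0.74, not past the threshold).

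Among the hosts of box H/ACA snoRNAs, 10 were tested and 4 passed, all higher. Of all genes, 33.7% passed and 15.5% were higher, and no test compared the kinds of host. SNHG4, which carries SNORA74A and SNORA74D, had 93.0, 88.6 and 89.9 TPM in sµg, against 66.6, 66.0 and 67.5 TPM in 1g. The groups were well apart, and the fold change was 1.37 (log2 0.45, SE 0.0406, edgeR adjusted p = 9.31e-08). SNHG4 overlaps MATR3 on the same strand, which had 26, 27.2 and 20 TPM in sµg and 23.6, 24.1 and 31.3 TPM in 1g, a log2 fold change of -0.06. DANCR, a long noncoding RNA named for opposing differentiation, had 470, 508 and 486 TPM in sµg, against 389, 373 and 404 TPM in 1g. Every sµg library was above every 1g library, and the log2 fold change was 0.26 (SE 0.0361, edgeR adjusted p = 2.3e-05). Its opposite-strand neighbour ERVMER34-1 rose as well, by 0.20 on the log2 scale (edgeR adjusted p = 0.00971). RSEM's default does not use strand, so reads in shared bases cannot be told apart.

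SNHG11, host of SNORA60 and SNORA71E, was low, with 16.2, 14.6 and 13.7 TPM in sµg and 10.3, 12.6 and 10.3 TPM in 1g. The groups did not overlap, and it rose by 0.34 on the log2 scale (SE 0.0877, edgeR adjusted p = 0.00545). SNHG9, host of SNORA78, had 38.0, 31.2 and 47.0 TPM in sµg, against 23.5, 25.1 and 28.1 TPM in 1g. Its log2 fold change was 0.60 (SE 0.213, edgeR adjusted p = 0.0371), the largest among the called host genes and one of the least certain, since it rested on 148 counts in sµg and 113 in 1g. Without sµg replicate 3 it was 0.41 with an adjusted p of 0.206, and the call was also lost without sµg replicate 1 or without any one of the 1g libraries, and by DESeq2 (adjusted p = 0.173). In all, the SNHG9 call was lost under 7 of the 14 alternatives tried.

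The other hosts of this kind did not pass the threshold. SNHG8 (SNORA24) had 194, 194 and 254 TPM in sµg and 161, 182 and 171 TPM in 1g, with an edgeR adjusted p of 0.122. Here the third sµg library set the spread: without it the log2 fold change was 0.15 in place of 0.31, but the adjusted p was 0.0238. SNHG7 (SNORA17A and SNORA17B) had 33.1, 36.3 and 40.3 TPM in sµg and 30.6, 28.1 and 33.0 TPM in 1g, with an adjusted p of 0.0907. SNHG3 (SNORA73A and SNORA73B) averaged 48.8 TPM in sµg and 47.9 TPM in 1g, where 1g replicate 1 included 10.5 TPM of SNHG3-203 from 2 counts. Its CPM did not overlap, with 77.1, 76 and 79.2 in sµg and 74, 71.2 and 74.3 in 1g (log2 fold change 0.08, edgeR adjusted p = 0.143). SNHG17 (the SNORA71 cluster) averaged 36.3 TPM in sµg and 38.5 TPM in 1g. SNHG15 (SNORA9) had 77.2, 81.2 and 97.8 TPM in sµg and 88.2, 90.8 and 98.9 TPM in 1g, where the groups overlapped. EPB41L4A-AS1, which carries SNORA13, had 60.0, 77.6 and 79.1 TPM in sµg and 75.7, 77.4 and 64.0 TPM in 1g, a log2 fold change of -0.08 (SE 0.0651, edgeR adjusted p = 0.39).

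Among the 12 hosts of box C/D snoRNAs, 2 rose and 2 fell, with a median log2 fold change of 0.01. Of all genes, 15.5% rose and 18.2% fell. SNHG5, host of SNORD50A and SNORD50B, had 485, 477 and 559 TPM in sµg, against 369, 368 and 361 TPM in 1g. All 3 sµg libraries were above the 1g libraries, with the highest value in sµg replicate 3, and the fold change was 1.34 (log2 0.42, SE 0.057, edgeR adjusted p = 0.000102). Without that library it was 0.34 on the log2 scale and still called. SNHG26, host of SNORD93, was low at 11.5, 11.8 and 8.98 TPM in sµg and 9.55, 9.14 and 7.65 TPM in 1g. Its CPM did not overlap between conditions but its TPM did, and it rose by 0.38 on the log2 scale of counts (SE 0.11, edgeR adjusted p = 0.0118). That call was lost under 6 of the 14 alternatives, among them log2(TPM + 1) (limma adjusted p = 0.171) and leaving out sµg replicate 2 or 1g replicate 3.

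SNHG32, host of SNORD48 and SNORD52, fell. It had 136, 136 and 147 TPM in sµg, against 162, 159 and 151 TPM in 1g, so that each sµg library was below each 1g library. The log2 fold change was -0.22 (SE 0.0519, edgeR adjusted p = 0.0033). SNHG14, the host of the SNORD116 and SNORD115 clusters, was lower in counts by 0.12 on the log2 scale, given as -0.12 (SE 0.036, edgeR adjusted p = 0.0146). In TPM, which divides by the length of the transcripts in use, it had 407, 411 and 395 in sµg and 398, 418 and 396 in 1g, and these overlap (limma on log2(TPM + 1) gave a log2 difference of -0.00 with an adjusted p of 0.995). In all, the SNHG14 call was lost under 6 of the 14 alternatives, among them leaving out sµg replicate 2, 1g replicate 2 or 1g replicate 3. SNRPN, which overlaps SNHG14 on the same strand, fell by 0.29 on the log2 scale (edgeR adjusted p = 7.06e-06), and reads of the 2 genes may be split between them.

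Several of the most abundant host RNAs did not pass the threshold. SNHG29 (SNORD49A, SNORD49B and SNORD65) had the highest level, 640, 659 and 686 TPM in sµg and 621, 634 and 650 TPM in 1g. ZFAS1, host of the SNORD12 family, had 188, 183 and 218 TPM in sµg and 199, 195 and 197 TPM in 1g. Its log2 fold change was -0.03 (SE 0.0894, edgeR adjusted p = 0.859). SNHG1, host of SNORD22 and of SNORD25 to SNORD31, averaged 287 TPM in sµg and 260 TPM in 1g, SNHG6 (SNORD87) 176 and 170 TPM, and SNHG16 (the SNORD1 family) 77.3 and 69.1 TPM. SNHG19 (SNORD60) had 98.8, 86.7 and 137 TPM in sµg and 86.3, 69.5 and 80.4 TPM in 1g, and its log2 fold change was 0.20 without sµg replicate 3, in place of 0.43 with it, past the threshold in neither.

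The hosts of both kinds of snoRNA include the best known noncoding host and both protein-coding ones. GAS5, named for its rise in growth-arrested cells, carries 11 snoRNAs in RefSeq, 10 of them box C/D. It had 529, 561 and 626 TPM in sµg and 573, 614 and 608 TPM in 1g, which overlap. The log2 fold change was -0.04 (SE 0.0622, edgeR adjusted p = 0.708). SNHG12 (SNORD99 with SNORA16A, SNORA44 and SNORA61) had 35.2, 31.1 and 43.7 TPM in sµg, against 29.1, 29.4 and 26.8 TPM in 1g, and rose by 0.27 on the log2 scale (SE 0.0958, edgeR adjusted p = 0.0413). That call was lost under 9 of the 14 alternatives (DESeq2, the effective length offset, both limma settings and leaving out any library other than sµg replicate 2), and stood at 0.14 with an adjusted p of 0.145 without sµg replicate 3.

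NOP56 encodes a core protein of box C/D snoRNPs and itself hosts SNORD110, SNORA51, SNORD86, SNORD56 and SNORD57. It had 507, 504 and 532 TPM in sµg, against 401, 426 and 430 TPM in 1g, with no overlap, and rose by 0.22 on the log2 scale (SE 0.0396, edgeR adjusted p = 0.000321). TAF1D, a subunit of the selectivity factor of RNA polymerase I, hosts 8 snoRNAs in GENCODE 44. It had 195, 194 and 213 TPM in sµg and 174, 180 and 175 TPM in 1g. The TPM values did not overlap, but the count-based log2 fold change of 0.11 did not pass (SE 0.0487, edgeR adjusted p = 0.101), while limma on log2(TPM + 1) gave 0.18 with an adjusted p of 0.028.

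Of the 3 tested scaRNA hosts, SNHG20 (SCARNA16) rose. It had 7.59, 8.13 and 8.24 TPM in sµg, against 6.27, 5.47 and 6.79 TPM in 1g, and its log2 fold change was 0.45 (SE 0.0992, edgeR adjusted p = 0.00186), a call lost with the effective length offset (adjusted p = 0.107). SEC14L1, which overlaps it on the same strand, moved the other way and fell by 0.34 on the log2 scale (edgeR adjusted p = 3.74e-05). The remaining tested hosts, SNHG10, SNHG18, SNHG21, SNHG25 and SNHG30, averaged between 3.47 and 12.8 TPM in either condition, none of them past the threshold.

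Leaving out the third sµg library moved the host genes as a group. It lowered the log2 fold change of 25 of the 30, and the calls became 8 higher and 6 lower, with 9 host genes called both with and without it. In that fit 26.7% of the host genes were higher, beside 17.4% of all genes, and 20% were lower, beside 18.9%, so the small share of falls seen with all libraries was not kept. The log2 fold changes of SNHG7 (0.10), SNHG16 (0.06), TAF1D (0.05) and SNHG1 (0.01), past the threshold in neither fit, were also smaller without it, against 0.20, 0.15, 0.11 and 0.09 with all libraries. The 4 that passed as lower only without it were GAS5 (log2 fold change -0.12, edgeR adjusted p = 0.000986), ZFAS1 (-0.14, adjusted p = 0.00537), SNHG15 (-0.19, adjusted p = 0.00134) and EPB41L4A-AS1 (-0.17, adjusted p = 0.00934). SNHG4, DANCR, SNHG5, NOP56, SNHG11 and SNHG32 were called in the same direction under all 14 alternatives tried.

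**Figure D3:**
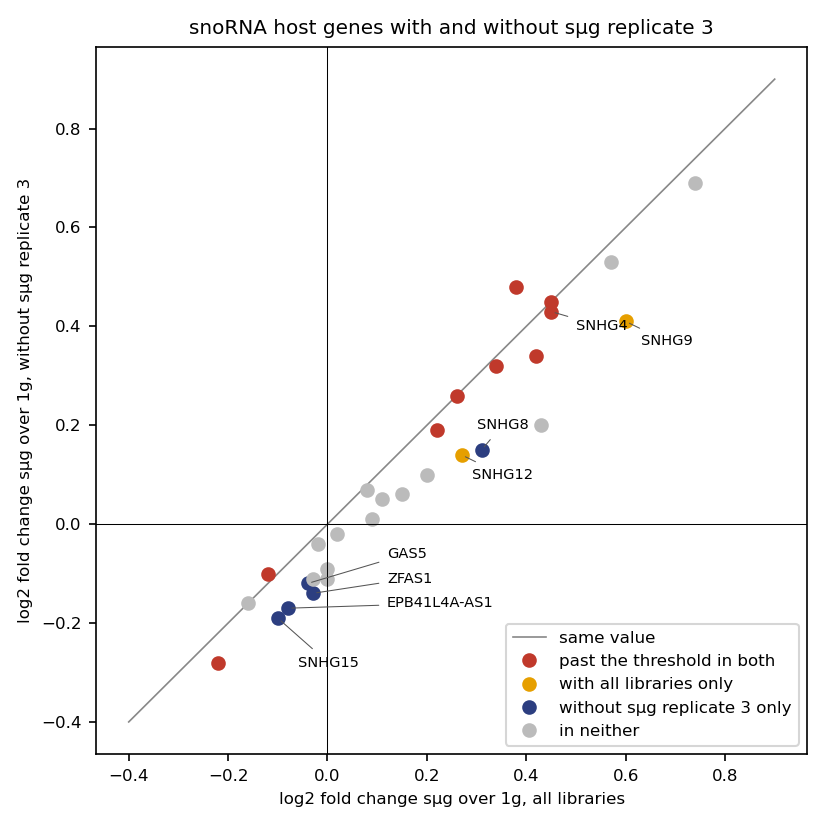
log2 fold change (sµg over 1g) of the 30 tested host genes with all libraries (x axis) and without sµg replicate 3 (y axis), each point a gene, coloured by whether its adjusted p was under 0.05 in both, one or neither. Most points lie below the line of equal values, and GAS5, ZFAS1, SNHG15 and EPB41L4A-AS1 pass as lower only without that library.

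Transcripts were then taken one by one. RSEM listed 785 transcripts of the host genes, of which 308 were tested and 4 passed, 3 higher and 1 lower. That is 1.3%, beside 1.76% of all 53807 transcripts tested. SNHG4-202, the 5-exon main transcript of SNHG4, had 42.8, 42.4 and 44 TPM in sµg, against 30.5, 29.5 and 28.8 TPM in 1g (log2 fold change 0.50, edgeR adjusted p = 0.0109). DANCR-201 had 198, 213 and 191 TPM in sµg, against 163, 157 and 159 TPM in 1g (0.29, adjusted p = 0.0452). Of the transcripts of SNHG14, SNHG14-270 had 6.79, 6.62 and 6.61 TPM in sµg, against 7.92, 7.87 and 7.89 TPM in 1g (-0.29, adjusted p = 0.0221), and SNHG14-297 had 0.44, 0.98 and 0.76 TPM in sµg and was listed at 0 in all 3 1g libraries (adjusted p = 0.0263). These transcripts overlap others of their gene over most of their length, so RSEM's division of reads between them adds error that the test does not see, and the calls for SNHG4-202 and DANCR-201 were lost in most fits that left out 1 library.

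The NOP56 transcripts moved unequally. NOP56-201 is the 12-exon coding transcript, and SNORD86 lies in the intron between its exons 8 and 9. NOP56-216 has 5 exons and no defined coding sequence, and its first exon (chr20:2655946-2656214 on GRCh38) runs on past the end of exon 8 of NOP56-201 (chr20:2655934-2656034) and contains the whole of SNORD86, printed above. NOP56-216 had 169, 166 and 199 TPM in sµg, against 112, 120 and 120 TPM in 1g, while NOP56-201 had 172, 164 and 158 TPM in sµg and 151, 150 and 157 TPM in 1g. Both sets are apart, but by unequal amounts: the log2 fold change was 0.56 for NOP56-216 (SE 0.0905, edgeR adjusted p = 0.05001, which does not pass 0.05) and 0.06 for NOP56-201 (SE 0.0362, edgeR adjusted p = 0.58). Over the alternatives the adjusted p of NOP56-216 ran between 1.61e-08 (DESeq2) and 0.196 (without 1g replicate 1). It was under 0.05 also with RLE scaling, with at least 10 counts in every library and without sµg replicate 3, and over it with the replicate block (0.192) and without any one of the other libraries. This pair was singled out after its values were seen. The direct comparison, the log2 odds of the transcript against the rest of its gene, differed by 0.47 for NOP56-216 (limma unadjusted p = 0.00573, adjusted p = 0.627) and by -0.29 for NOP56-201 (unadjusted p = 0.0308, adjusted p = 0.713), and neither passed over all 48529 transcripts tested.

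**Figure D4:**
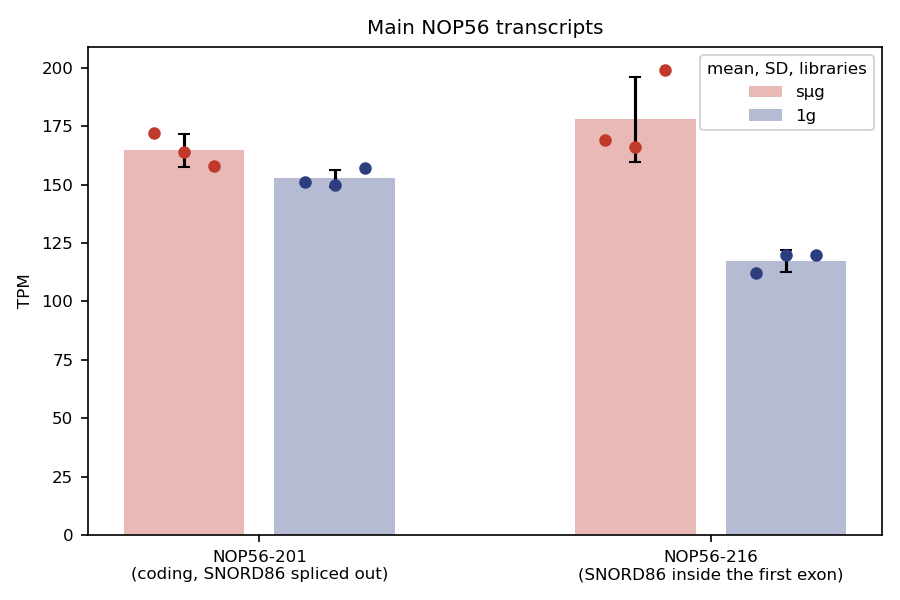
TPM of the coding NOP56-201 and of NOP56-216, whose first exon contains SNORD86. Bars are means and error bars are SD over 3 libraries, points are libraries, with sµg (red) left of 1g (blue): NOP56-216 averages 178 TPM in sµg and 117 TPM in 1g, NOP56-201 165 and 153 TPM.

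The same question was put to every host gene by summing the transcripts with a whole snoRNA inside an exon. In 20 tested host genes these made up at least 5% of the gene's TPM in either condition. For NOP56 the share was 41.7%, 45.0% and 47.6% in sµg, against 40.0%, 39.9% and 39.1% in 1g. For GAS5 it was 40.8%, 38.2% and 41.3% in sµg, against 35.8%, 37.0% and 34.0% in 1g, and the spliced main transcript GAS5-221 had 207, 223 and 246 TPM in sµg and 254, 264 and 275 TPM in 1g. Neither the log2 fold change of GAS5-221 (-0.27, edgeR adjusted p = 0.241) nor its difference in log2 odds (-0.32, limma adjusted p = 0.664) passed. For SNHG32 it was 16.2%, 15.5% and 15.4% in sµg, against 11.6%, 12.5% and 12% in 1g, all of it SNHG32-207, the transcript that keeps SNORD52. In SNHG20 the order was the other way and the gap the widest, with 11.7%, 18.8% and 17.6% in sµg, against 25.8%, 25.2% and 33.9% in 1g. That share rested mainly on SNHG20-201, which held only 33 counts in sµg and 63 in 1g. SNHG3 had 26.0%, 24.1% and 25.1% in sµg, against 26.7%, 30.0% and 34.7% in 1g. In 1g replicate 1 the SNHG3 share was lowered by SNHG3-203, which holds no snoRNA and had 10.5 TPM from 2 counts. The sµg shares were likewise above the 1g shares in SNHG8 and SNHG16 and below them in SNHG7 and SNHG14, and the other host genes overlapped or, for SNHG25, were 100% in every library. The shares carry no test. They were not computed for other genes, so how often such shares separate in general is not known. Over all transcripts of the host genes that were tested for use (304), limma on the log2 odds called 0. Of these 304, 30 had an unadjusted p under 0.05, beside 3371 of the 48529 transcripts of all genes, of which limma also called 0. By edgeR's diffSpliceDGE 1 host gene transcript was called, SNHG14-297. The intron pieces in these transcripts may come from unspliced RNA, and poly(A) libraries do not show whether a snoRNA was released from them.

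**Figure D5:**
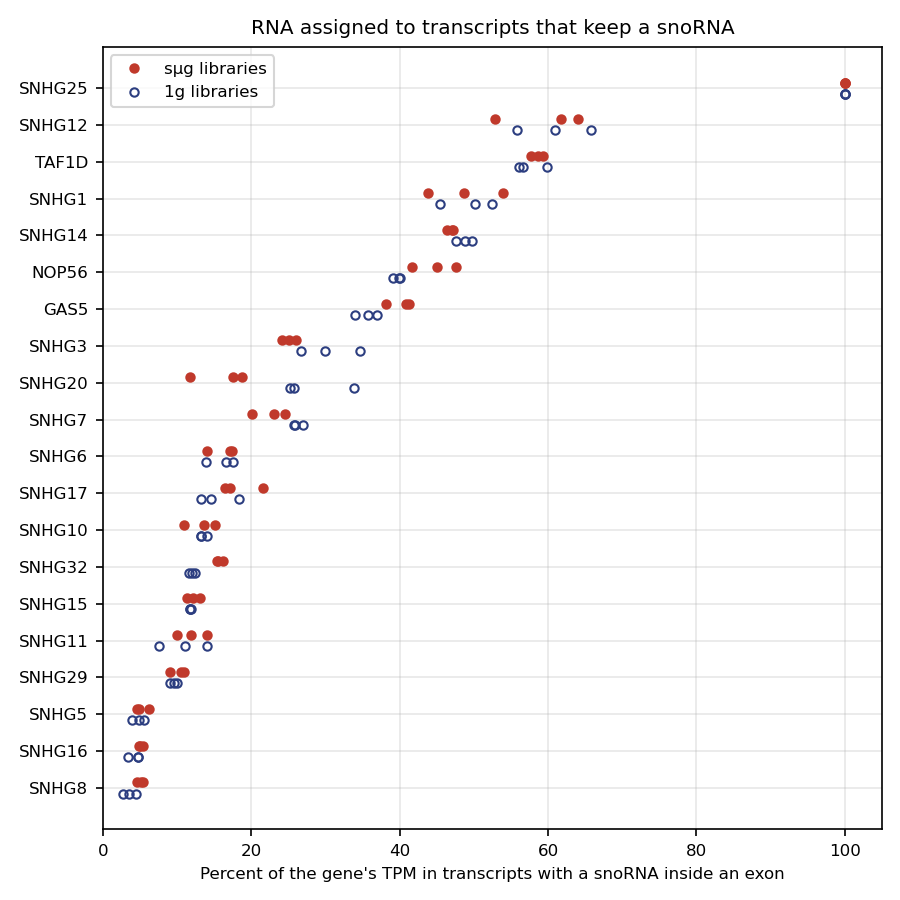
Percent of each host gene's TPM assigned to transcripts that contain a whole snoRNA in an exon, for the 20 host genes where it was at least 5%. Each point is a library, with the sµg libraries (filled, red) above the 1g libraries (open, blue): the sµg points of NOP56, GAS5 and SNHG32 lie to the right of their 1g points, and those of SNHG3 and SNHG20 to the left.

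The promoters of the called host genes are shown because the TOP start is the feature by which these genes are usually grouped. RefSeq (GRCh38.p14) gave a promoter for 31 host genes, and in 6 of them its start lay more than 1000 bases from the start of the gene in GENCODE 44. SNHG14 (starts 154975 bases apart), SNHG20 (1927) and SNHG12 (1259) are among these, so their windows may not be the start of the RNA that was counted. The 100 bases below run from 50 before the transcript start to 50 from it on, for the 4 host genes with the smallest adjusted p among those that rose and the 2 that fell, and capitals mark a run of at least 6 C or T that touches the 10 bases around the start.
SNHG4, higher in sµg, chr5:139274051-139274150, plus strand: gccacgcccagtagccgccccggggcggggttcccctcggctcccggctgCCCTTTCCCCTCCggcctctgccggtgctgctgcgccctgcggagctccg
DANCR, higher in sµg, chr4:52712344-52712443, plus strand: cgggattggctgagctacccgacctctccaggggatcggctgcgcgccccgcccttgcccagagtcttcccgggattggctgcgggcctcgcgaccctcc
SNHG5, higher in sµg, chr6:85678684-85678783, minus strand: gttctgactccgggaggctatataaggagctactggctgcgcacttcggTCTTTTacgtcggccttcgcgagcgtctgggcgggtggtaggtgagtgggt
NOP56, higher in sµg, chr20:2652582-2652681, plus strand: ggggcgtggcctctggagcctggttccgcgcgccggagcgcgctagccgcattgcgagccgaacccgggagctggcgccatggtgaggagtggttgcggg
SNHG32, lower in sµg, chr6:31834866-31834965, plus strand: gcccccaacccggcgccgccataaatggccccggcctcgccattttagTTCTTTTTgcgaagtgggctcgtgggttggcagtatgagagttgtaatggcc
SNHG14, lower in sµg, chr15:24823558-24823657, plus strand: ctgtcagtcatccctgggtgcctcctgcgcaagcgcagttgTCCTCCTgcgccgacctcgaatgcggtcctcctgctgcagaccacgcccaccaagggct
Such a run, read on the gene's own strand, was found in 18 of the 31 promoters (58.1%), in 50 of 69 ribosomal protein promoters (72.5%) and in 22.2% of all 35116 promoters in the table. Among host genes that rose it was in 3 of 8 (37.5%), those of SNHG4, SNHG5 and, at the RefSeq start, SNHG12. It was absent from DANCR, NOP56, SNHG11, SNHG26 and, at the RefSeq start, SNHG20. It was in SNHG32 and, at the RefSeq start, in SNHG14, which fell, and in 68.8% of the host genes tested and not called. The letters CACGTG, the palindromic E-box bound by MYC and MAX among others, were in 2 of the 31 promoters (6.45%), those of SNHG7 and SNHG30, and in 7.26% of all promoters.

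Genes that share the snoRNA-carrying structure but not the name were taken from GENCODE 44, which does not annotate every snoRNA. Of 335 other hosts, 263 were tested, 54 rose and 38 fell, with a median log2 fold change of 0.04. Calls made up 35% of these tested hosts, near the 33.7% of all genes. By class the share was 10.7% for ribosomal protein hosts, 39.4% for other protein-coding hosts and 17.6% for other noncoding hosts. The 28 tested ribosomal protein genes among these hosts gave 3 calls, all lower, RPL13A (log2 fold change -0.15), RPL13 (-0.19) and RPL4 (-0.11). Among 218 tested protein-coding hosts of other kinds, 52 rose and 34 fell, led by ODC1, the first enzyme of polyamine synthesis, with 126, 123 and 113 TPM in sµg, against 68.6, 70.6 and 68.1 TPM in 1g (edgeR adjusted p = 1.92e-11), and by AAK1, which fell by 0.67 on the log2 scale. Of 17 other noncoding hosts, UBA6-DT (0.41) and C19orf48P (0.12) rose and XACT fell by 0.41 in counts, although its TPM was 0.13, 0.16 and 0.14 in sµg and 0.09, 0.08 and 0.11 in 1g.

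Genes that act on the snoRNAs, and separately the genes of RNA polymerase I, were followed as lists. Of the 4 box C/D core proteins NOP56 rose at the gene level, while NOP58 (log2 fold change 0.01), FBL, the methyltransferase (-0.02), and SNU13 (0.04) did not pass. The main coding transcript, NOP56-201, stood at 0.06 (edgeR adjusted p = 0.58). NOP56-216, without a defined coding sequence, stood at 0.56 (edgeR adjusted p = 0.05001). Of the 4 box H/ACA core proteins NOP10 rose by 0.19 on the log2 scale (edgeR adjusted p = 0.0347), and DKC1, the pseudouridine synthase, did not pass (0.03). Of 15 snoRNP assembly genes RPAP3, of the R2TP chaperone complex (0.27), TGS1, the cap hypermethylase (0.12), and NAF1, an H/ACA assembly factor (0.19), rose, and PIH1D1 (-0.13) fell. Of 15 RNA polymerase I genes 3 passed, all higher, TAF1A (0.33), POLR1B (0.13) and POLR1F (0.13). The medians of these lists were 0.02, 0.06, 0.06 and 0.10, beside 0.01 for all genes. The shares called, in the same order, were 25%, 25%, 26.7% and 20%, each below the 33.7% of all genes.

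NMD, by which many host RNAs are removed, was followed in the same way. Of 20 NMD factors PNRC2 (0.30), UPF2 (0.18) and UPF3B (0.14) rose, and of 8 mRNAs known as NMD targets GADD45B (-1.25), ATF3 (-0.38), DDIT3 (-0.54) and UPP1 (-0.21) fell, and no others of either list passed. These 4 are also stress-responsive genes, and the cause of their fall was not tested. ATF4, itself among the 8 NMD targets listed, stood at 0.03. Of 17 TOP mRNAs other than those of ribosomal proteins, 1 rose (EEF1B2, 0.14) and 8 fell, among them CCNG1 (-0.35), EEF1A1 (-0.24), EEF2 (-0.24) and EIF3F (-0.22), with a median of -0.09. Of 84 ribosomal protein genes tested 2 rose, RPS26 (0.32) and RPL22L1 (0.34), and 8 fell, which became 49 lower without sµg replicate 3. With all libraries the shares called were 15% of NMD factors and 50% of NMD targets. For these TOP mRNAs the share was 52.9% and for ribosomal protein genes 11.9%, beside 33.7% of all genes.

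There were 9 protein-coding neighbours that start within 1000 bases of a host gene on the opposite strand. Of these TRAF7, which starts 293 bases from SNHG19, fell by 0.14 on the log2 scale (edgeR adjusted p = 0.00813), and SEMA5A, 95 bases from SNHG18, fell by 0.30 (adjusted p = 0.00889). RPS2, 54 bases from SNHG9, had 4427, 4508 and 4690 TPM in sµg and 4773, 4494 and 4652 TPM in 1g (log2 fold change -0.07), and SLC3A2, 51 bases from SNHG1, stood at -0.08, neither past the threshold. MED17, ZNFX1, BARD1, ZBTB37 and ACAA2, beside TAF1D, ZFAS1, SNHG31, GAS5 and SNHG22, did not pass either. Without sµg replicate 3 the called neighbours were 6 in place of 2.

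The labelled cell type was checked by its markers. POU5F1 had 2198, 2192 and 2385 TPM in sµg and 2191, 2182 and 2175 TPM in 1g, and SOX2 (log2 fold change 0.01) and NANOG (-0.08) did not pass, while LIN28A fell by 0.37, as did DNMT3B and PRDM14, 3 of 11 markers of pluripotent cells. Many markers of differentiated cells moved with the condition: 5 of 5 tested trophectoderm markers were lower in sµg (summed TPM 17.1 to 21.7 in sµg, against 39.1 to 42.9 in 1g), as were 3 of 3 of neuroectoderm (80.7 to 91.8 in sµg, against 106 to 112 in 1g, nearly all NES), 2 of 4 of mesoderm (2.36 to 2.6 in sµg, against 5.1 to 6.86 in 1g) and 2 of 3 of endoderm (1.05 to 1.79 in sµg, against 1.52 to 3.36 in 1g, which overlap). HAND1 was counted under both trophectoderm and mesoderm. Among the lineage markers that did not pass, FOXA2 (0.91) and MIXL1 (0.25) had positive log2 fold changes and EOMES (-0.76) a negative one. Of 3 tested fibroblast markers, COL1A1 (-1.91) and COL1A2 (-0.38) were lower and THY1 (0.31) higher, with summed TPM of 373 to 400 in sµg and 384 to 401 in 1g. The part of these markers in the host gene results was not tested. In bulk RNA, fewer cells of a type and less RNA per cell cannot be told apart.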

How the data were processed

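The deposited files hold, per gene and per transcript, expected counts and TPM that the authors made by aligning paired-end poly(A) reads with STAR 2.7.7a to GRCh38 (GENCODE 36) and quantifying with RSEM 1.3.3, whose default does not use strand. Expected counts were rounded and tested with edgeR 4.0.16 (glmQLFit, robust, TMM factors 0.988 to 1.01, filterByExpr with a minimum count of 10 and total of 15) and adjusted over all genes. Alternatives were RLE scaling, DESeq2 1.42.0, no or a stricter filter, an effective length offset (RSEM's effective lengths, deposited beside the counts), limma 3.58.1 on log2(TPM + 1) and log2(TPM + 0.1), a replicate block and leaving out each library. Transcript use was tested with diffSpliceDGE, which called unchanged genes on simulated counts, so limma on the log2 odds was added after seeing the data. The host genes and gene lists were chosen with earlier results of these data known. Values are given for host genes past the threshold or averaging at least 20 TPM, and for up to 4 genes of each other list.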

Additional observations from a re-analysis of the deposited data

How the results depend on the processing

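The host genes called higher numbered 9 and were 5 with the effective length offset, 7 by DESeq2, 8 by limma on log2(TPM + 1), 13 without a filter on low counts and 6 to 12 on leaving out 1 library. Those called lower numbered 2, and were 1 with the effective length offset and under both limma settings, and 1 to 6 on leaving out 1 library. Other snoRNA hosts called higher were 54, against 27 with the effective length offset and 35 under both limma settings (37 to 70 on leaving out 1 library), and those called lower were 38, against 24, 16 on log2(TPM + 1) and 17 on log2(TPM + 0.1) (29 to 54). Calls in the gene lists were 25, and 16 under those 3 settings (15 to 32). Divergent neighbours called were 2, and 1 by DESeq2 and both limma settings (1 to 6). Over all genes 5648 were called, 3873 by DESeq2, 3106 with the length offset and 2954 on log2(TPM + 1).

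Transcript calls were the least stable. Of host gene transcripts 3 were higher, against 5 with RLE scaling, 14 by DESeq2, 7 with at least 10 counts in every library and 0 with the replicate block (0 to 2 on leaving out 1 library), and 1 was lower, against 11 by DESeq2, 2 with the stricter filter and 0 with the block (0 to 1). Transcript use gave 1 call, 0 with the stricter filter, 0 by limma on the log2 odds, and 1 to 2 on leaving out 1 library. The causes of these shifts were not tested. The share of all transcripts called under each alternative is not given, so these counts do not tell host gene transcripts from transcripts in general.

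The replicate numbers of the labels were used as a block once. Same-numbered libraries did not deviate together (correlations 0.00406, 0.0414 and 0.0126), so the numbers were not taken to pair them, although the methods call the controls matched. The block gave 12 host genes higher and 2 lower, beside 2619 higher and 3057 lower over all genes. With 3 libraries a condition, low host genes such as SNHG25 (47 counts in sµg and 33 in 1g) allow no firm statement.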
